A study of Homo sapiens with 12 samples.

Results

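The genes of MHC class II antigen presentation were followed by RNA sequencing in THP-1, a human line that was established from a patient's monocytic leukaemia. The 10 genes were chosen by name among the 78932 genes of the tables: the regulator CIITA, the invariant chain gene CD74, HLA-DRA, HLA-DRB1, HLA-DQA1, HLA-DQB1, HLA-DPA1, HLA-DPB1, HLA-DMA and HLA-DMB. Of these, 9 passed the filter on low counts and were tested with 14065 genes in all, and CIITA did not pass. There were 12 libraries in 4 groups of 3. CEL cells received LPS, ATP, cyclosporin A (CsA in the labels), eltrombopag and luspatercept. CE cells received LPS, ATP, cyclosporin A and eltrombopag. LPS cells received LPS and ATP only, which the study used as its model of pyroptosis, an inflammatory form of cell death. NC cells were the normal control, and all groups were THP-1 cells. LPS is a bacterial cell wall component sensed by TLR4, cyclosporin A inhibits calcineurin, eltrombopag is a thrombopoietin receptor agonist that also binds iron, and luspatercept is a ligand trap built on an activin receptor. The labels give no dose or time. Cyclosporin A and eltrombopag were given only together, and luspatercept only on top of both, so their separate effects cannot be told apart.

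MHC class II molecules are pairs of an alpha and a beta chain (DR, DQ and DP) that present peptides from the endosome to CD4+ T cells. CD74 fills their groove and carries them to the endosome, where cathepsins cut it down and HLA-DM exchanges the last fragment for antigenic peptide. CIITA does not bind DNA itself: it is recruited by RFX, CREB and NF-Y proteins that sit on the X and Y boxes of class II promoters, and interferon gamma induces it, with IRF1 among the factors at its promoter. Monocytic cells carry class II at a lower level than dendritic cells or B cells and can raise it on activation.

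The X and Y boxes are where the promoters of these genes meet the shared regulators, so they are shown for the members in which the letters were found in the sense orientation. In each line, from RefSeq on GRCh38.p14 and written 5′ to 3′ on the gene's strand, the first capitals mark the X box core (AGNNAC) and the later capitals the Y box (ATTGG or its complement CCAAT).
CD74 (chr5:150412951-150412999, minus strand): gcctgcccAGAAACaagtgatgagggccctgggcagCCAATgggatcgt
HLA-DRB1 (chr6:32589882-32589935, minus strand): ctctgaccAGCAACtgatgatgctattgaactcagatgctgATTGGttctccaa
HLA-DQA1 (chr6:32637296-32637350, plus strand): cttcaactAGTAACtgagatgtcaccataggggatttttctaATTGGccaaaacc
HLA-DQB1 (chr6:32666733-32666786, minus strand): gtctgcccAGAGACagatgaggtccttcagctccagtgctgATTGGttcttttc
HLA-DMA (chr6:32953164-32953218, minus strand): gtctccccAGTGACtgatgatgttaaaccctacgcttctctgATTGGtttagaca
The search covered the 250 bases before each RefSeq start, on both strands, with 20 to 35 bases between the boxes, and its letters were chosen with these sequences seen. The promoter table held 8 of the 10 genes, in 9 windows. AGNNAC followed by ATTGG or CCAAT was found in 6 of these 8 genes and in 4.16% of all 35116 windows of the same length. The narrower form AGNAAC was found in 3 of the 8 genes and in 1.2% of all windows, and ATTGG or CCAAT alone in 7 of the 8 genes and in 32% of all windows. HLA-DPB1 matched on the opposite strand only, and HLA-DPA1 and HLA-DMB did not match. A match is a description of the letters in this window and says nothing of binding in these cells.

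On hg38 in the GENCODE v29 annotation, CIITA lies on chromosome 16 (10866222 to 10943021, plus strand) and CD74 on chromosome 5 (150401637 to 150412929, minus strand). The 8 HLA genes lie together on chromosome 6, between the start of HLA-DRA at 32439842 and the end of HLA-DPB1 at 33087201. HLA-DPA1 (33064569 to 33080775, minus strand) and HLA-DPB1 (33075926 to 33087201, plus strand) overlap, and the counting's strand setting is not given, so their reads cannot be fully told apart.

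Each library held 17737240 to 23183474 estimated counts. Nuclear ribosomal RNA took 0.173% of the counts in NC 3 and 0.128% in LPS 1 and at most 0.000563% in the other libraries, so results are also given without those libraries where they differ. CE 2 stood apart in some genes, monocytic and others. SPI1 was at 24.1 CPM in CE 2, against 2.66 and 4.10 in the other CE libraries. CSF1R was at 132, against 29.9 and 40.6. NLRC5, a class I regulator, was at 4.24, against 1.08 and 0.964. All 14 monocytic markers had counts in every group, with a summed level of 634 to 701 CPM in CEL, 775 to 1036 in CE, 3074 to 3157 in LPS and 1841 to 1929 in NC. CPM are counts over library sizes adjusted by TMM. A change is a log2 value ± its approximate standard error, and a gene is said to be higher or lower where the two-sided quasi-likelihood test of edgeR gave a Benjamini-Hochberg adjusted p under 0.05 over all tested genes. No source says that the libraries came from separate cultures, so the p-values cover only the spread between them, which may be technical. In bulk RNA, fewer cells with a transcript and less transcript per cell cannot be told apart.

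The comparison of LPS with NC shows what the model did to these genes. HLA-DRA, HLA-DRB1, HLA-DQA1 and CD74 were higher in LPS and HLA-DQB1 was lower, and the other 4 tested members did not pass. That is 4 of 9 tested members higher, where 22.4% of all tested genes were higher, and 1 lower, where 23.5% were lower. The members' median log2 change was 0.34, against -0.01 over all tested genes.

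The comparison of CE with LPS shows what cyclosporin A with eltrombopag did within the model. All 9 tested members were higher in CE, and in each of them the 3 CE libraries lay above the 3 LPS libraries. Over all tested genes 28.8% were higher and 20.7% lower by the test, and in 31% the CE libraries lay wholly above the LPS libraries. The members' median log2 change was 0.98, against 0.08 over all tested genes. HLA-DMB passed the filter on low counts only through its CE libraries, so it had to differ and its call is no support. Without HLA-DMB all 8 remaining members were higher, with a median of 0.97. The table columns for CE could be matched only as the remaining group, and every CE value rests on that match.

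Markers of other cells moved in that comparison too. The summed level of 8 B cell markers was 4.97 to 5.92 CPM in CE, against 0.786 to 1.89 in LPS, and it lay at 2.90 to 3.68 in CEL and 1.55 to 1.94 in NC. Most of it in CE was FCRLA, at 4.37 CPM, while BLK and CR2 were at 0 in CE and MS4A1 was at 0 in CEL and LPS. The summed level of the 14 monocytic markers, given above, was lower in CE than in LPS, but the markers did not share a direction. S100A9 averaged 199.7 CPM in CE and 1754 in LPS, and LYZ 27.7 in CE and 142 in LPS. CD33 averaged 71.6 in CE and 56.7 in LPS, and CD68 174 in CE and 155 in LPS. The summed level of 13 dendritic cell markers was 44.7 to 51.8 CPM in CEL, 48.7 to 55.9 in CE, 38.2 to 39.5 in LPS and 55.8 to 58.6 in NC, with CLEC4C at 0 in every group. It was mostly FLT3 (25.6 CPM in CEL, 23.0 in CE, 15.9 in LPS and 55.7 in NC) and LAMP3 (17.1 in CEL, 22.5 in CE, 12.8 in LPS and 0.130 in NC), which differed between groups in different ways. The 8 T cell markers summed to 0.913 to 1.5 CPM in CEL, 1.69 to 1.97 in CE, 7.06 to 8.14 in LPS and 0.183 to 0.343 in NC. In CEL, CE and LPS most of that was TRAC, at 0.836, 1.71 and 7.41 CPM, while CD3E was at 0 there. In NC, TRAC was at 0.134 CPM. Their part in the class II results was not tested.

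The comparison of CEL with CE shows what luspatercept added. CD74, HLA-DRA and HLA-DPA1 were lower in CEL, none of the 9 tested members was higher, and 6 did not pass. Over all tested genes 14.8% were lower and 8.78% higher. In 5 members the CEL libraries lay wholly below the CE libraries, against 20.3% of all tested genes. The members' median was -0.47, against -0.09 over all tested genes. Against LPS, 7 members were higher in CEL, where 28.7% of all tested genes were higher and 27.2% lower, with a median of 0.66 against -0.03.

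Set against NC, 8 of 9 tested members were higher in CE, where 34.6% of all tested genes were higher and 29.4% lower. HLA-DMB is among the 8. It passed the filter only through its CE libraries, so its call is no support here either. In CEL 7 were higher, where 34% of all tested genes were higher and 33% lower. The median log2 change of the 9 members, HLA-DMB included, was 1.86 in CE and 1.21 in CEL, against 0.09 and 0.00 over all tested genes. These comparisons share their libraries with those above, so they are given as values side by side and not as further evidence.

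**Figure D1:**
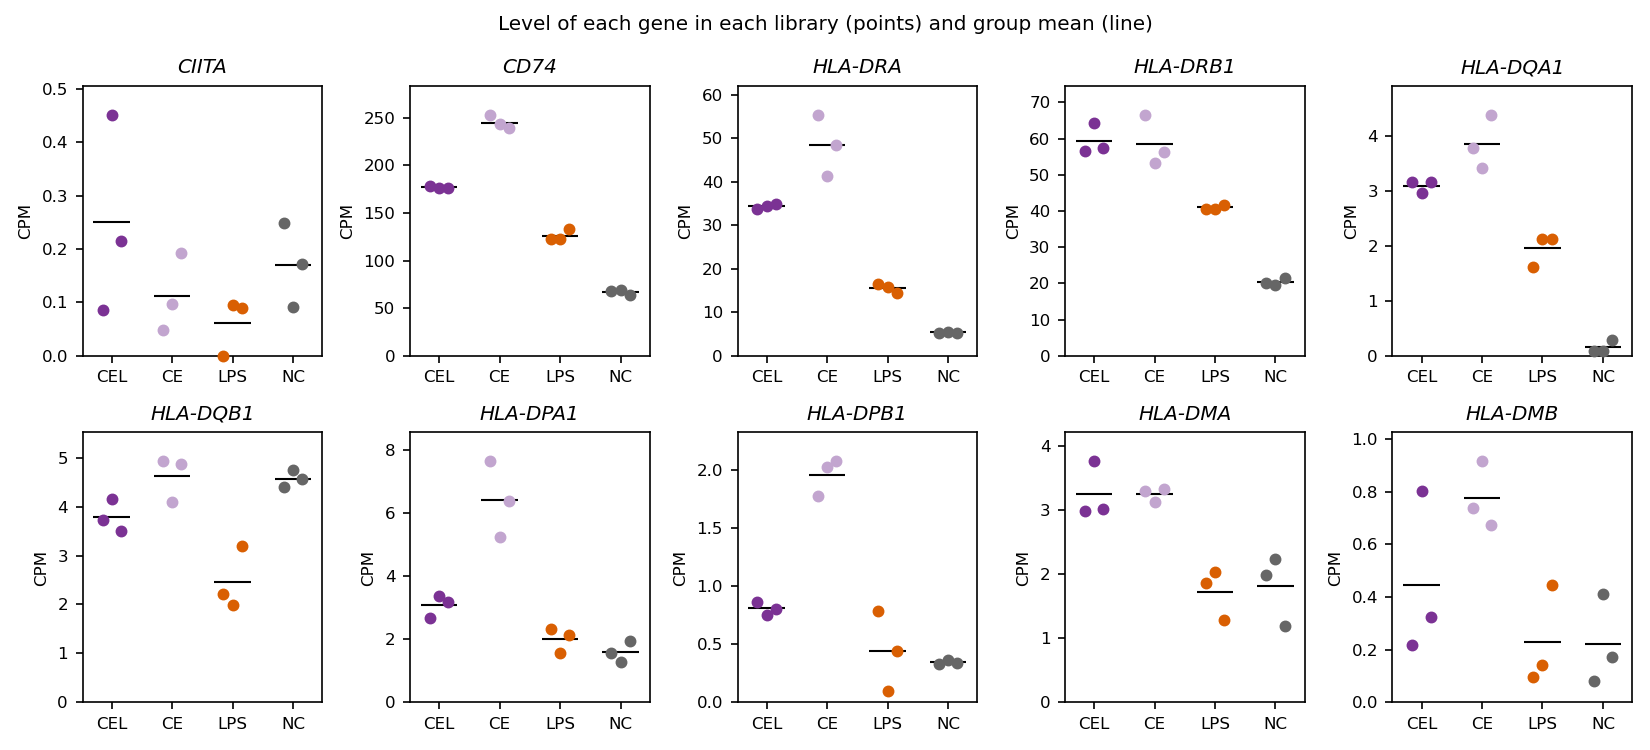
Level of each of the 10 genes in CPM (linear axis from 0, a scale of its own in each panel) in CEL, CE, LPS and NC, with a point for each library and a line at the group mean. CD74 and HLA-DRA lie highest in CE and lowest in NC with no overlap between groups, HLA-DQA1 is near 0 in NC, and CIITA stays under 0.5 CPM.

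CIITA, the regulator that class II transcription depends on, was close to the detection limit. Over the 3 libraries of a group it had 15 rounded counts in CEL, 7 in CE, 4 in LPS and 11 in NC. The exact 95% Poisson intervals, which cover counting error only, ran from 8.40 to 24.7 in CEL, from 2.81 to 14.4 in CE, from 1.09 to 10.2 in LPS and from 5.49 to 19.7 in NC. The ratio of CEL to LPS was 3.89 with a counting interval of 1.24 to 16.1, and the ratio of CE to LPS was 1.81 (0.461 to 8.44). The ratio of LPS to NC was 0.361 (0.0838 to 1.22). The intervals of 5 of the 6 ratios, all but CEL to LPS, included 1, and a difference was not detectable there at this depth. By library CIITA ran from 0.0866 to 0.451 CPM in CEL and from 0 to 0.0946 in LPS, so these groups overlapped too. The share of genes that passed the filter was lower at higher GC content, taken from the longest protein-coding transcript of each gene. Whether this came from detection or from expression was not tested. With a GC content up to 40%, 72.4% of protein-coding genes passed the filter, against 58.9% of those between 50% and 55%, and 13.2% of those above 65%. The longest CIITA transcript, of 16059 bases, has 52.7% GC, and shorter CIITA transcripts were not measured. Whether base composition touched its counts was not tested.

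CD74, the invariant chain, was the most abundant member per length. It reached 215 ± 8.07 TPM in CEL, 284 ± 11.9 in CE, 144 ± 32.3 in LPS and 69.3 ± 15.8 in NC (SD, n = 3 each). By library it had 178, 177 and 176 CPM in CEL, 253, 243 and 239 in CE, 122, 123 and 133 in LPS and 67.8, 69.6 and 64.3 in NC. The groups did not overlap, in the order CE, CEL, LPS, NC. CD74 was 1.87-fold higher in LPS than in NC (0.90 ± 0.05, edgeR adjusted p = 2.27e-08) and 1.94-fold higher in CE than in LPS (0.96 ± 0.05, edgeR adjusted p = 2.61e-08). In CEL it was 1.41-fold higher than in LPS (0.49 ± 0.05) and 1.38-fold lower than in CE (-0.47 ± 0.05, edgeR adjusted p = 3.51e-05). The fall in CEL against CE was not called by limma on log2(TPM + 1), with an adjusted p of 0.348, nor on log2(TPM + 0.1) (adjusted p = 0.361), and its within-batch values ran from -0.50 to -0.44.

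HLA-DRA encodes the DR alpha chain, which hardly varies between people. It had 33.7, 34.5 and 34.8 CPM in CEL, 55.3, 41.3 and 48.5 in CE, 16.4, 15.8 and 14.4 in LPS and 5.36, 5.43 and 5.37 in NC. The groups again did not overlap, and the CE libraries spread widest. HLA-DRA was 2.88-fold higher in LPS than in NC (1.53 ± 0.10, edgeR adjusted p = 2.53e-07) and 3.11-fold higher in CE than in LPS (1.64 ± 0.10, edgeR adjusted p = 1.20e-07), which put CE 8.97-fold above NC. In CEL it was 2.21-fold higher than in LPS (1.14 ± 0.10) and 1.41-fold lower than in CE (-0.50 ± 0.09, edgeR adjusted p = 0.00281). That last call was lost in the fit of CEL and CE alone (adjusted p = 0.0681) and with limma on log2(TPM + 1) (adjusted p = 0.257) and on log2(TPM + 0.1) (adjusted p = 0.302).

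HLA-DRB1 encodes the DR beta chain that varies most between people. It had 56.6, 64.2 and 57.4 CPM in CEL, 66.5, 53.1 and 56.2 in CE, 40.5, 40.7 and 41.7 in LPS and 20.1, 19.5 and 21.6 in NC. CEL and CE overlapped, and both lay above LPS, which lay above NC. It was 2.01-fold higher in LPS than in NC (1.01 ± 0.09, edgeR adjusted p = 2.54e-06) and 1.43-fold higher in CE than in LPS (0.52 ± 0.09, edgeR adjusted p = 0.000368). In CEL it was 1.45-fold higher than in LPS, and CEL differed from CE by 0.02 ± 0.08 (edgeR adjusted p = 0.903). HLA-DRB1 has near-identical copies between which estimated counts can be split. With the counts of its copies added, the difference of CEL from CE was -0.07 (adjusted p = 0.557). HLA-DRB5, another DR beta gene and the only 1 of 12 further class II genes listed that was tested, averaged 13.1 ± 1.04 CPM in CEL, 17.6 ± 0.611 in CE, 10.2 ± 0.859 in LPS and 5.47 ± 0.668 in NC. It was higher in LPS than in NC (0.89 ± 0.11), higher in CE than in LPS (0.79 ± 0.11) and lower in CEL than in CE (-0.42 ± 0.11, edgeR adjusted p = 0.0142). The last call was lost without any 1 CEL library, CE 1 or CE 3 (adjusted p 0.0604 to 0.140).

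HLA-DRA was also set against HLA-DRB1 within each library. HLA-DRB5 was left out, so this is not the full balance of the DR chains. The ratio of HLA-DRA to HLA-DRB1 in TPM was 0.620 ± 0.0340 in CEL, 0.865 ± 0.0484 in CE, 0.407 ± 0.0342 in LPS and 0.284 ± 0.0152 in NC (SD, n = 3 each). It did not overlap in any of the 6 comparisons. With 3 libraries against 3, the exact two-sided permutation test cannot go below p = 0.1, which each of them reached, and over the 30 ratio tests the adjusted value was 0.188. The ratio of CD74 to HLA-DRA in TPM was 5.14 in CEL, 5.10 in CE, 8.03 in LPS and 12.3 in NC. CEL and CE lay together, while LPS lay above both and NC highest.

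**Figure D2:**
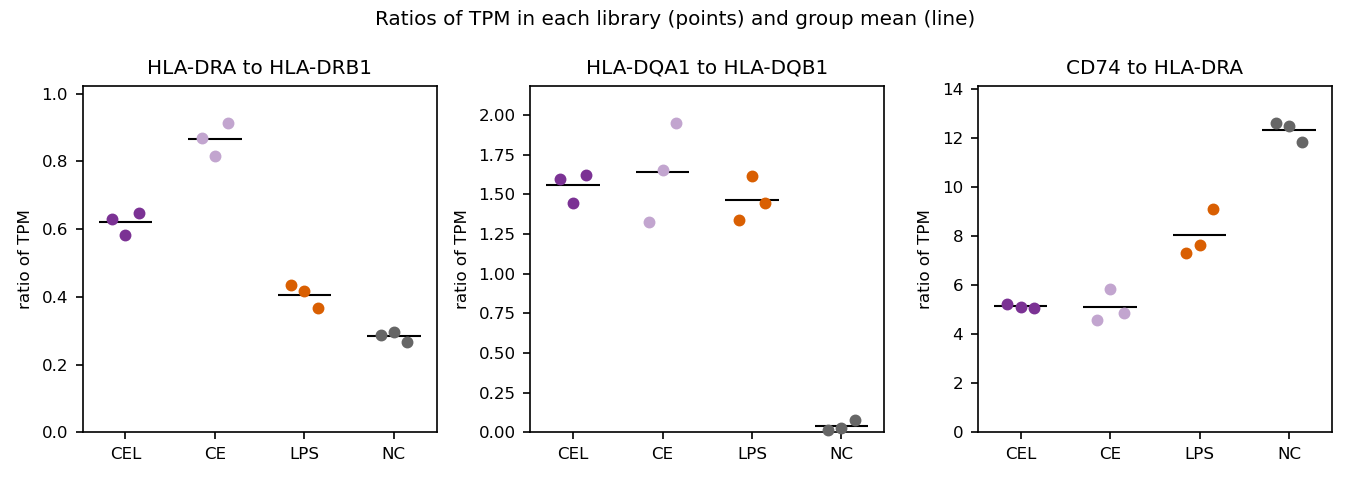
Ratio of TPM values (linear axis from 0) of HLA-DRA to HLA-DRB1, HLA-DQA1 to HLA-DQB1 and CD74 to HLA-DRA in each library of CEL, CE, LPS and NC, with a line at the group mean. HLA-DRA to HLA-DRB1 averages 0.865 in CE and 0.284 in NC, and HLA-DQA1 to HLA-DQB1 lies near 0 in NC only.

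The DQ chains did not move together in the model. HLA-DQA1, the DQ alpha chain, had 3.16, 2.96 and 3.17 CPM in CEL, 3.79, 3.42 and 4.38 in CE, 1.62, 2.13 and 2.13 in LPS and 0.0831, 0.0913 and 0.285 in NC. NC was almost without it, and the other groups lay clear of NC. HLA-DQB1, the DQ beta chain, had 3.72, 4.16 and 3.49 CPM in CEL, 4.92, 4.09 and 4.87 in CE, 2.21, 1.99 and 3.2 in LPS and 4.40, 4.75 and 4.57 in NC. Here LPS lay lowest, and CE and NC overlapped. HLA-DQA1 was 13.1-fold higher in LPS than in NC (3.71 ± 0.35, edgeR adjusted p = 4.85e-06), while HLA-DQB1 was 1.85-fold lower (-0.89 ± 0.18, edgeR adjusted p = 0.00201). The HLA-DQA1 value rests on few NC counts, and over the alternatives it ran from 1.74 to 4.49.

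Within the model the DQ chains both rose. In CE against LPS, HLA-DQA1 was 1.97-fold higher (0.98 ± 0.25, edgeR adjusted p = 0.00725) and HLA-DQB1 1.87-fold higher (0.90 ± 0.18, edgeR adjusted p = 0.00151). In CEL against LPS, HLA-DQA1 changed by 0.66 ± 0.25 (edgeR adjusted p = 0.0458), a call that held in 3 of 17 alternatives. It was lost with the replicate number as a block (0.67, adjusted p = 0.0519), with any CEL or LPS library left out in turn (adjusted p 0.0676 to 0.153) and with the copies' counts added (0.46, adjusted p = 0.151). HLA-DQB1 was higher in CEL than in LPS (0.62 ± 0.18, edgeR adjusted p = 0.0132), a call that held in 9 of 17 alternatives. It was lost without LPS 1 (adjusted p = 0.0513), without LPS 2 (0.0504), without NC 3 and LPS 1 together (0.0885), with upper quartile scaling (0.0572), with library size alone (0.0557), with limma on TPM (0.0643 and 0.0648) and with no low-count filter (0.186). Neither differed between CEL and CE by the test (-0.32 ± 0.25 and -0.29 ± 0.18). The ratio of HLA-DQA1 to HLA-DQB1 in TPM was 1.56 in CEL, 1.64 in CE, 1.47 in LPS and 0.0399 in NC, and CEL, CE and LPS overlapped.

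The DP chains rose in CE against LPS and did not pass in LPS against NC. HLA-DPA1, the DP alpha chain, had 2.68, 3.36 and 3.17 CPM in CEL, 7.63, 5.25 and 6.36 in CE, 2.31, 1.56 and 2.13 in LPS and 1.58, 1.28 and 1.94 in NC. CE stood above the other groups, and LPS and NC overlapped. HLA-DPB1, the DP beta chain, had 0.866, 0.752 and 0.806 CPM in CEL, 1.77, 2.02 and 2.07 in CE, 0.786, 0.0946 and 0.444 in LPS and 0.332, 0.365 and 0.343 in NC. It showed CE highest as well, with a wide spread in LPS.

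HLA-DPA1 was 3.2-fold higher in CE than in LPS (1.68 ± 0.22, edgeR adjusted p = 5.72e-05) and 2.09-fold lower in CEL than in CE (-1.06 ± 0.21, edgeR adjusted p = 0.00384), a difference that did not pass with limma on log2(TPM + 0.1) (adjusted p = 0.0657). HLA-DPB1 was 4.40-fold higher in CE than in LPS (2.14 ± 0.45, edgeR adjusted p = 0.00203), and its value in CEL against CE, -1.27 ± 0.43, did not pass (edgeR adjusted p = 0.0526) although the groups did not overlap. Between LPS and NC the values were 0.33 ± 0.22 for HLA-DPA1 and 0.34 ± 0.51 for HLA-DPB1, and neither passed. In CEL against LPS, HLA-DPA1 changed by 0.62 ± 0.22 (edgeR adjusted p = 0.0315), a call that held in 8 of 16 alternatives. It was lost without CEL 2, CEL 3, LPS 2 or LPS 3 (adjusted p 0.0503 to 0.107), with upper quartile scaling (0.0926), with library size alone (0.0519), with DESeq2 (0.0714) and with no low-count filter (0.227). In the same comparison HLA-DPB1 had 0.87 ± 0.47, which passed only without LPS 1 (1.55, adjusted p = 0.0169) or without LPS 1 and NC 3 together. HLA-DPB1 was higher in CEL than in NC (1.21 ± 0.48, edgeR adjusted p = 0.0444), a call that held in 3 of 16 alternatives, but not with the replicate number as a block (1.20, adjusted p = 0.0634), nor with any CEL or NC library left out in turn (adjusted p 0.0687 to 0.109).

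HLA-DM, the editor that loads peptide into the class II groove, is made of the HLA-DMA and HLA-DMB chains, both at low levels here. HLA-DMA had 2.99, 3.76 and 3.01 CPM in CEL, 3.30, 3.13 and 3.32 in CE, 1.87, 2.03 and 1.29 in LPS and 1.99, 2.24 and 1.20 in NC. The groups fell into a higher pair, CEL and CE, and a lower pair, LPS and NC. HLA-DMB had 0.216, 0.802 and 0.322 CPM in CEL, 0.738, 0.914 and 0.675 in CE, 0.0982, 0.142 and 0.444 in LPS and 0.0831, 0.411 and 0.171 in NC. CEL, LPS and NC overlapped, and CE lay highest on average. HLA-DMA was 1.88-fold higher in CE than in LPS (0.91 ± 0.24, edgeR adjusted p = 0.0088) and 1.88-fold higher in CEL than in LPS (0.91 ± 0.24, edgeR adjusted p = 0.00758), and CEL and CE did not differ by the test (0.00 ± 0.25). HLA-DMB, which was tested only because of its CE counts, had 1.72 ± 0.65 in CE against LPS (edgeR adjusted p = 0.0468). That value is a description, with a call that held in 4 of 16 alternatives and was lost without CE 1, CE 2, CE 3, LPS 1 or LPS 2 (adjusted p 0.0830 to 0.155). HLA-DMA in CE and CEL against LPS was lost with limma on TPM (adjusted p 0.0573 to 0.113). HLA-DMA was higher in CE than in NC (0.83 ± 0.24, edgeR adjusted p = 0.0105) and in CEL than in NC (0.83 ± 0.24, edgeR adjusted p = 0.00975). Both calls were lost without NC 3 and LPS 1 together (adjusted p = 0.0858 in CE and 0.0679 in CEL), and the CE call with upper quartile scaling (0.55, adjusted p = 0.0666).

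**Figure D3:**
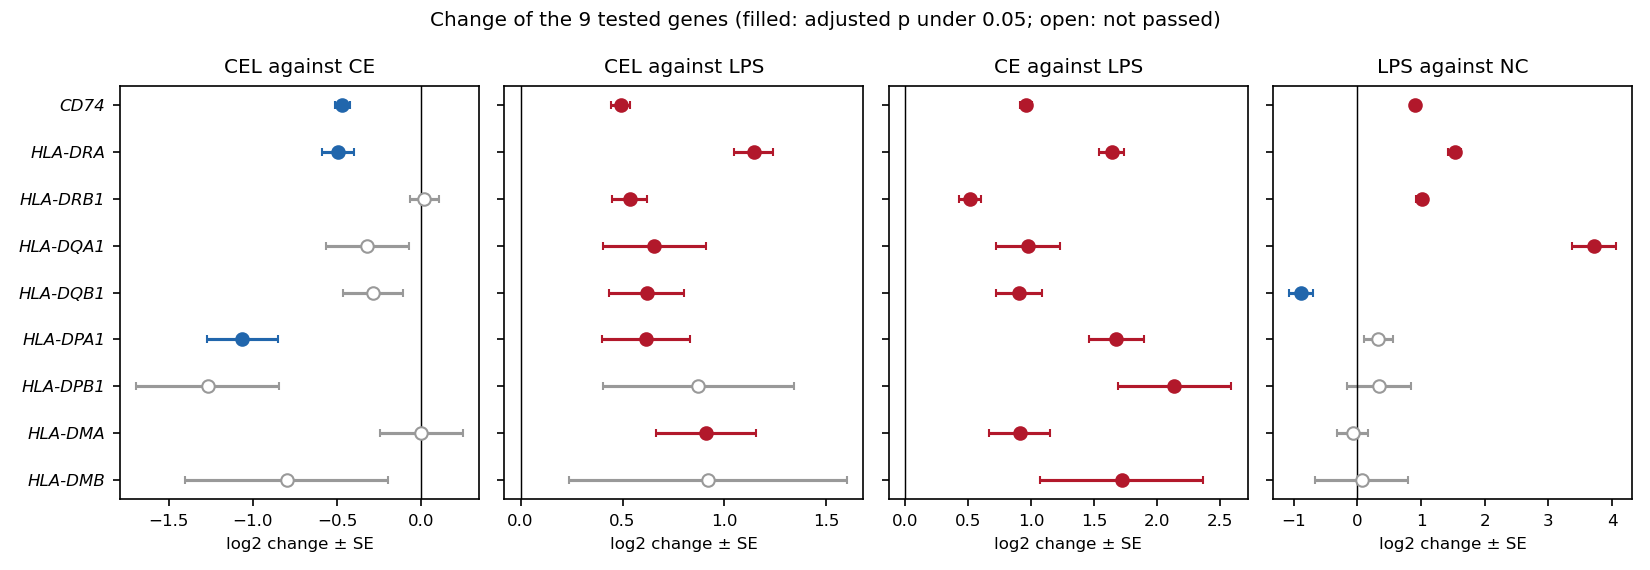
Log2 change ± approximate SE of the 9 tested genes in CEL against CE, CEL against LPS, CE against LPS and LPS against NC (each panel has its own axis). Filled points have an adjusted p under 0.05. All 9 lie to the right of 0 in CE against LPS, while in LPS against NC HLA-DQA1 and HLA-DQB1 lie on opposite sides.

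The factors that sit on class II promoters were called in both directions. Of 15 listed, all tested, 2 were higher and 4 lower in LPS than in NC, where 22.4% and 23.5% of all tested genes were. In CE against LPS 3 were higher and 5 lower, beside 28.8% and 20.7%, and in CEL against CE 1 was higher and 3 lower, beside 8.78% and 14.8%. These counts lie near the shares over all genes and are no result about the list. Without CE 2, 4 were higher and 3 lower in CEL than in CE, beside 1607 and 2459 of all tested genes. Without NC 3 none was higher and 2 lower in LPS than in NC, beside 2638 and 2736. The list's median log2 changes were -0.05 in LPS against NC, -0.12 in CE against LPS and -0.11 in CEL against CE. RFX5, the X box subunit, had 93.9, 98.4 and 94.7 CPM in CEL, 137, 140 and 132 in CE, 157, 161 and 151 in LPS and 174, 167 and 165 in NC, so it was lowest where luspatercept was added. It was lower in CE than in LPS (-0.20 ± 0.04, edgeR adjusted p = 0.00188) and in CEL than in CE (-0.51 ± 0.04, edgeR adjusted p = 1.16e-05), and LPS against NC did not pass (-0.11 ± 0.04). RFXANK, its partner, was lower in all 3 of these comparisons (-0.70, -0.37 and -0.47). NFYA, a Y box subunit, was lower in CE than in LPS (-0.77 ± 0.04) and higher in CEL than in CE (0.47 ± 0.04). CREB1, which joins RFX on the X box, was 1.99-fold higher in CE than in LPS (0.99 ± 0.07, edgeR adjusted p = 6.99e-07).

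Genes listed under signals to CIITA were mostly higher in LPS than in NC. The list was not split by whether a gene raises or lowers CIITA, so its counts give no direction of signal. Of 15 tested of 17 listed, 12 were higher and 1 lower in LPS than in NC, where 22.4% and 23.5% of all tested genes were, with a median of 1.31. IRF1, an interferon-induced factor that binds the CIITA promoter, averaged 41.6 ± 4.71 CPM in CEL, 33.7 ± 6.37 in CE, 20.8 ± 1.10 in LPS and 12.0 ± 0.344 in NC. It was higher in LPS than in NC (0.79 ± 0.13) and in CE than in LPS (0.70 ± 0.12), with these groups clear of each other in CPM. In TPM the groups overlapped in both comparisons. IRF1 had 24.0, 30.4 and 21.3 TPM in CE, 15.6, 14.9 and 21.9 in LPS and 8.78, 8.99 and 22.2 in NC. IFNGR2, a chain of the interferon gamma receptor, was higher in LPS than in NC (2.35 ± 0.04) and in CE than in LPS (1.43 ± 0.04). IRF8, also listed, was lower in CE than in LPS (-1.18 ± 0.08, edgeR adjusted p = 3.49e-07) and higher in CEL than in CE (0.28 ± 0.08). BCL6 was higher in LPS than in NC (3.81 ± 0.15), and PRDM1 was higher in CEL than in CE (0.66 ± 0.15). In CE against LPS, 6 of the 15 were higher and 3 lower, beside 28.8% and 20.7% of all tested genes. Without CE 2 there were 6 of each, beside 4227 genes higher and 3896 lower over all tested genes. In CEL against CE 4 were higher and 2 lower, beside 8.78% and 14.8%, with 2 higher without CEL 3 and 6 higher without CE 2.

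Of the genes that process CD74 and antigen or turn class II over, 25 of 26 listed were tested. In LPS against NC 15 were higher, 3 lower and 7 did not pass, beside 22.4% higher and 23.5% lower over all tested genes. In CE against LPS 10 were higher and 4 lower, beside 28.8% and 20.7%, and in CEL against CE 8 were higher and 3 lower, beside 8.78% and 14.8%. The medians were 0.68 in LPS against NC, 0.39 in CE against LPS and 0.13 in CEL against CE. Without CE 2, 9 were higher and 6 lower in CE than in LPS, with a median of 0.15. Over all tested genes there were then 4227 higher and 3896 lower. CTSS, the cathepsin that cuts CD74 down in antigen-presenting cells, averaged 440 ± 12.9 CPM in CEL, 360 ± 11.5 in CE, 225 ± 8.21 in LPS and 65.5 ± 1.18 in NC. It was higher at each step, with 1.78 ± 0.04 in LPS against NC, 0.68 ± 0.04 in CE against LPS and 0.29 ± 0.04 in CEL against CE (edgeR adjusted p = 0.000383 for the last). In CEL against CE, CTSS was thus higher while CD74 was lower. IFI30, the lysosomal thiol reductase, averaged 38.8 ± 4.03 CPM in CEL, 39.0 ± 3.89 in CE, 69.9 ± 2.10 in LPS and 3.69 ± 0.230 in NC, so LPS was highest. CD83, a protein that keeps class II on the surface, averaged 159 ± 5.60 CPM in CEL, 104 ± 10.4 in CE, 44.0 ± 2.43 in LPS and 5.42 ± 1.09 in NC and was higher at each step (3.02, 1.24 and 0.62). MARCHF1, the ligase that removes class II from the surface, did not pass in any of the 3 comparisons (0.19 ± 0.16, 0.39 ± 0.16 and -0.12 ± 0.16), although without LPS 1 it was higher in CE than in LPS (0.54, adjusted p = 0.0213).

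**Figure D4:**
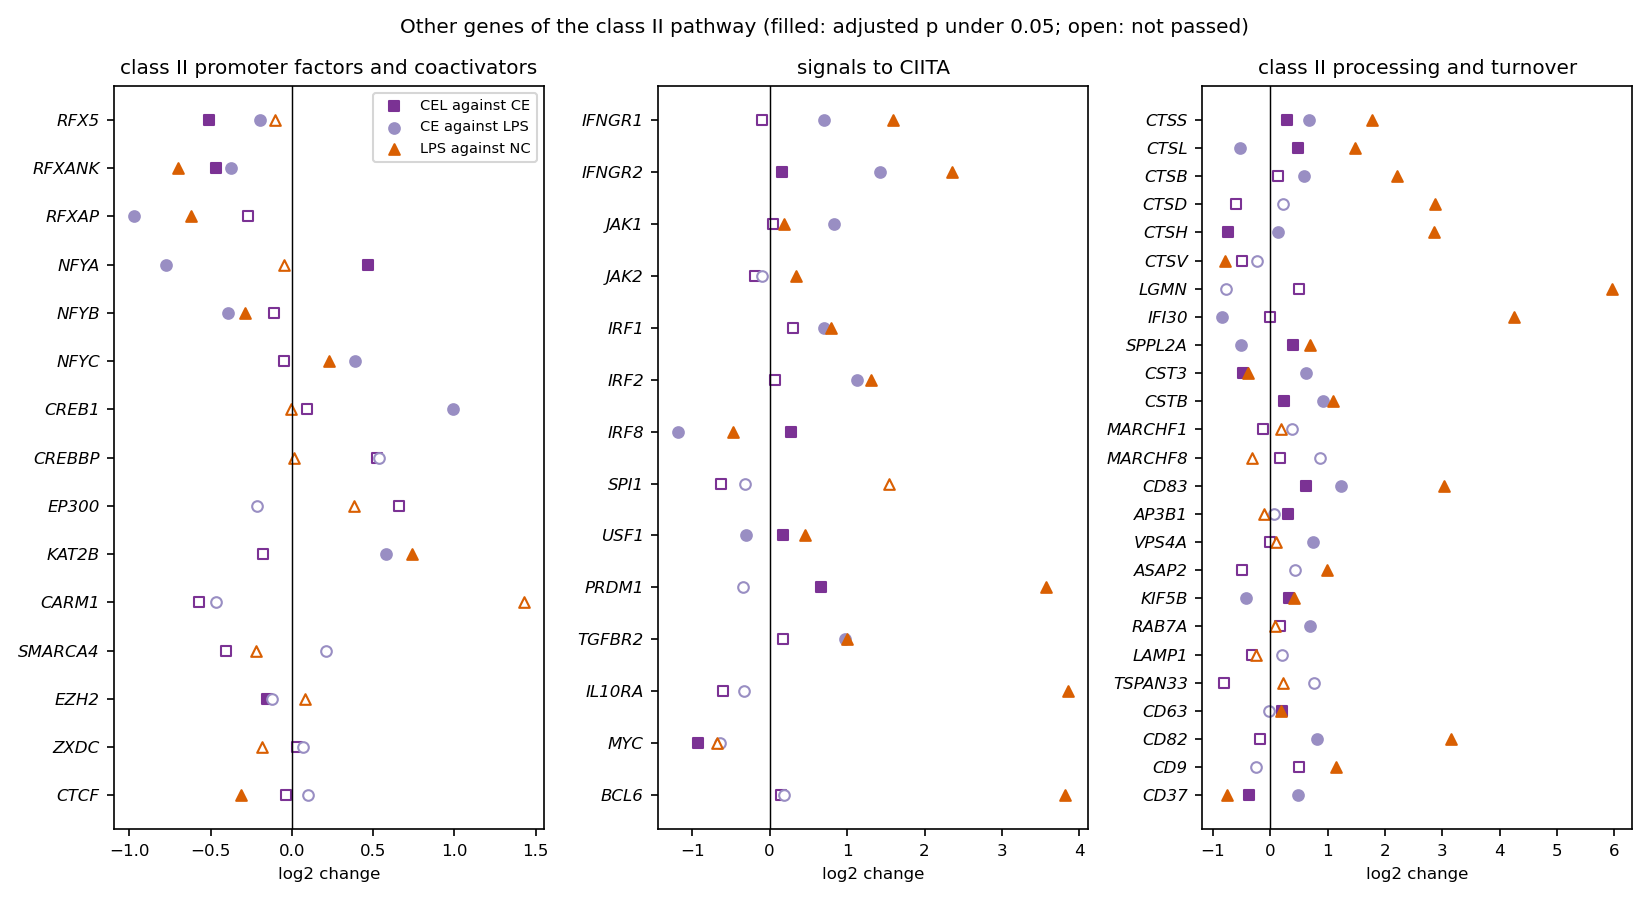
Log2 change of other listed genes, in 3 panels with their own axes: class II promoter factors, signals to CIITA, and class II processing and turnover. Squares are CEL against CE, circles CE against LPS and triangles LPS against NC, and filled symbols have an adjusted p under 0.05. Most signal and processing genes lie to the right in LPS against NC, while RFX5 and RFXANK lie to the left of 0.

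Partners of CD74 were called in both directions in LPS against NC. CD74 is also a receptor for MIF, with CD44 as its signalling partner. MIF was lower in LPS than in NC (-0.92 ± 0.07) and higher in CE than in LPS (0.73 ± 0.07, edgeR adjusted p = 3.42e-06), whereas CD44 was higher in both comparisons (1.77 ± 0.05 and 1.38 ± 0.05). Of 6 tested CD74 partners, 2 were higher and 4 lower in LPS than in NC, beside 22.4% and 23.5% of all tested genes. In CE against LPS 4 were higher and 0 lower, beside 28.8% and 20.7%. There were 2 higher without CE 1, CE 3 or LPS 2, and 5 without CE 2. Of 6 tested presentation partners, 5 were higher and 0 lower in LPS than in NC, beside the same 22.4% and 23.5%. In CE than in LPS 4 were higher and 0 lower, beside 28.8% and 20.7%, with 3 higher without CE 3 and 5 without CE 2. CD86, which gives T cells their costimulus, averaged 24.0 ± 1.75 CPM in CEL, 36.5 ± 4.20 in CE, 26 ± 1.69 in LPS and 1.25 ± 0.331 in NC. It was higher in CE than in LPS (0.49 ± 0.13) and lower in CEL than in CE (-0.60 ± 0.13, edgeR adjusted p = 0.00705), with CD74 and HLA-DRA called in the same direction in both comparisons. The call in CE against LPS was lost without CE 3 (adjusted p = 0.0640), and that in CEL against CE without CE 3, CEL 1 or CEL 2 (adjusted p 0.0645 to 0.0719). CD40 was higher in CE than in LPS (1.27 ± 0.10) and did not pass in CEL against CE (0.09 ± 0.10).

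MHC class I genes, which present peptides from the cytosol, are the closest like group. Of 17 tested of 18 listed, 12 were higher and none lower in LPS than in NC, where 22.4% and 23.5% of all tested genes were, with a median of 1.08. In CE against LPS, 4 were higher, 4 lower and 9 did not pass, beside 28.8% and 20.7% of all tested genes, with a median of 0.01. These values turned on CE 2: without it 5 were higher and 10 lower, with a median of -0.27, and without CE 3 there were 2 higher and 2 lower, with a median of 0.11. Over all tested genes 4227 were higher and 3896 lower without CE 2, and 3463 and 2572 without CE 3, where the report's fit has 4057 and 2915. Lower calls thus rose beyond this list without CE 2. Of the class II members 8 were higher and 0 lower in CE than in LPS without CE 2. NLRC5, the regulator of class I genes, had 1.47, 1.40 and 1.61 CPM in CEL, 1.08, 4.24 and 0.964 in CE, 4.27, 3.17 and 4.62 in LPS and 2.82, 3.06 and 3.03 in NC, so that CE 2 lay with LPS. It did not pass in CE against LPS (-0.94 ± 0.45) and was lower without CE 2 (-1.96, adjusted p = 1.19e-05). B2M, the light chain of class I, was higher in CE than in LPS (0.46 ± 0.08, edgeR adjusted p = 0.000741). The difference between the class I and class II lists was not tested.

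Genes with the pattern most like CD74 over the 12 libraries were sought among 7179 tested protein-coding genes that averaged 3 or more on the log2 CPM scale. Likeness was the root mean square difference in log2 CPM after centring each gene on its own mean, so a smaller value is closer. For CD74 the closest were TGIF1 (0.0801), LST1 (0.0960), TRANK1 (0.120), TGFBI (0.130) and SRGAP2C (0.130), where the median gene differed by 0.689. For HLA-DRA they were BIN2 (0.147), MYO1E (0.196), DYNLT3 (0.203), SP100 (0.214) and PAPSS1 (0.216), with a median of 1.17. Among the members, HLA-DRB1 lay 0.213 from CD74, HLA-DPA1 0.364, HLA-DMA 0.470 and HLA-DRA 0.536. CIITA was not tested, so no likeness is given for it.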

How the data were processed

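Poly(A) RNA of 12 THP-1 libraries was captured on oligo-dT beads, per the labels' protocols. The build is hg38, per the submitters' processing notes. Neither labels nor file headers name the aligner, the annotation or how reads were counted, strand included. The tables deposited by the authors cover 78932 genes: estimated counts (29.3% of nonzero values not whole within 0.005), TPM (columns summing to 999999 to 1000001) and FPKM (722589 to 1132219). The deposited FPKM served only to repeat the TPM ratios. Columns were matched to samples by name, with CE as the remaining group, and 0 were left over.

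Before testing, the expected counts were rounded, genes were kept by filterByExpr (minimum count 10), libraries were scaled by TMM, and 1 model with group as its term was fitted to all 12 libraries in edgeR 4.0.16 (R 4.3.3) with the quasi-likelihood F-test, adjusted over 14065 genes. The common dispersion was 0.0405 (20.1% biological coefficient of variation), with 8 residual and 2.93 prior degrees of freedom. The SE is approximate, |log2 change| over the root of F. The prior count was 2 in log2 CPM. Alternatives used limma 3.58.1, DESeq2 1.42.0, other scalings, no filter, the replicate block and libraries left out. Leaving libraries out for the listed genes, and leaving out HLA-DMB, were chosen after seeing the data. The fit was tested on simulated data.

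The labels give each library a batch number, which equals its replicate number. Over 7460 genes, deviations from the group means correlated at -0.857 to 0.728 across the 18 pairs with a shared number, with a median of -0.186. The correlation exceeded 0.1 in 6 pairs, and for 1 library its closest match had the same number. The blocked value is printed where it changes a call.

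The members and lists were chosen with earlier results of these data known, so they give no independent support. The genes named are the 10 members, 8 regulators and effectors, up to 4 tested genes of each list by smallest p in each comparison, and the 5 genes most like CD74 and HLA-DRA. FCRLA and the other markers named were picked after their values were seen. A few genes covered by this rule are not reported here, though the counts over their lists include them.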

Additional observations from a re-analysis of the deposited data

How the results depend on the processing

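Under the alternatives, the calls of CD74, HLA-DRA and HLA-DRB1 in LPS against NC, CE against LPS and CEL against LPS passed every time, as did HLA-DPA1, HLA-DPB1, HLA-DQA1 and HLA-DQB1 in CE against LPS, and no member changed direction while called. With limma on log2(TPM + 1) fewer genes passed: 2963 in LPS against NC (2070 higher, 893 lower), 3586 in CE against LPS, 4984 in CEL against LPS and 266 in CEL against CE. With limma on log2(TPM + 0.1) the counts were 2951, 3545, 4978 and 225. These compare with 6458, 6972, 7867 and 3321. With NC 3 and LPS 1 both left out, a setting chosen after seeing the data, LPS against NC gave 4305 genes, and the members that passed were 5 in LPS against NC, 8 in CE against LPS, 6 in CEL against LPS, 6 in CE against NC and 5 in CEL against NC. In CEL against CE, a fit of those groups alone gave 1710 genes and leaving out a replicate gave 2120 to 4066. Members that passed in CEL against LPS, 7 in the report, were 4 with upper quartile scaling, library size alone, no low-count filter and limma on log2(TPM + 0.1), and 4 to 6 with a library left out. In CEL against CE, 3 in the report, there were 0 with limma on log2(TPM + 0.1). The settings with libraries left out also had fewer of them, and the cause of these differences was not tested.

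Upper quartile scaling shifted the median log2 change of all genes by -0.11 in LPS against NC, -0.17 in CE against LPS, -0.14 in CEL against LPS, -0.28 in CE against NC and -0.24 in CEL against NC. It moved the split to 2604 higher and 4387 lower in LPS against NC, where the report's fit has 3152 and 3306, and to 2945 and 4000 in CE against LPS, where it has 4057 and 2915. It gave 3571 and 5646 in CE against NC, where the report's fit has 4869 and 4139, and 3828 and 5805 in CEL against NC, where it has 4778 and 4647. Library size alone shifted the median by -0.15 in CE against LPS, -0.11 in CEL against LPS, -0.16 in CE against NC and -0.12 in CEL against NC. It gave 3040 and 3833 in CE against LPS, and 1581 and 1756 in CEL against CE, where the report's fit has 1235 and 2086. With upper quartile scaling HLA-DQB1 was also lower in CEL than in NC (-0.51, adjusted p = 0.0331). HLA-DPB1 passed in CEL against CE with limma on log2(TPM + 1) (-0.97), with no low-count filter (-1.33) and in the fit of those groups alone. HLA-DMB in CE against NC, tested only because of its CE counts, passed in 7 of 16 alternatives. The replicate block changed the call of HLA-DQA1 in CEL against LPS and of HLA-DPB1 in CEL against NC, and gave 5992, 6558, 7537 and 2803 genes in LPS against NC, CE against LPS, CEL against LPS and CEL against CE. It changed no other call of a member. Choosing between repeated table entries was not run, since 0 members had any. Depth limits CIITA, HLA-DMB and HLA-DPB1, which have few counts.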

Other observations

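HLA-F, a class I gene of the MHC region, differed widely between the treated groups. It averaged 2.36 ± 0.318 CPM in CEL, 0.404 ± 0.0333 in CE, 4.21 ± 0.243 in LPS and 0.0190 ± 0.0330 in NC (SD, n = 3 each). HLA-F was lower in CE than in LPS (-3.36 ± 0.30, edgeR adjusted p = 3.35e-06) and higher in CEL than in CE (2.52 ± 0.30, edgeR adjusted p = 0.000156). Within batches, the CE to LPS difference ran from -3.25 to -2.97 on the log2 scale.

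The cathepsins did not share a direction in CEL against CE. CTSH, a lysosomal aminopeptidase, averaged 155 ± 1.69 CPM in CEL and 259 ± 9.39 in CE, and was lower (-0.74 ± 0.05, edgeR adjusted p = 2.23e-06). CTSL, an endopeptidase that cuts CD74 in thymic epithelium, was higher (0.49 ± 0.06, edgeR adjusted p = 0.000125), as was CTSS. CTSB did not pass (0.13 ± 0.04), except without CE 1 (0.22, adjusted p = 0.0294).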
